A study of Mus musculus with 41 samples.

Results

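The 8 genes described here encode proteins of the methyl-CpG-binding domain family (Mbd1, Mbd2, Mbd3 and Mbd4), the methyl-DNA reader Zbtb33 and the Gadd45 proteins (Gadd45a, Gadd45b and Gadd45g), which have been tied to the removal of methyl groups from DNA. Every probe set that the array's platform annotation gives to one of these gene symbols was taken, dim ones included. This gave 18 of the 45037 probe sets on the array that are not controls: 5 for Mbd1, 2 for Mbd2, 1 for Mbd3, 3 for Mbd4, 2 for Zbtb33, 1 for Gadd45a, 3 for Gadd45b and 1 for Gadd45g. Of the 18, 12 lay in the brighter part of all probe sets by mean level.

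The RNA came from the hippocampi of 41 male C57BL/6J mice, each profiled on 1 expression array. The mice entered a battery of behavioural tests at 10 weeks of age, in which 5 tests gave 11 measures of memory and cognition: the Barnes maze at 10 to 11 weeks, the radial maze at 12 to 14 weeks, the T-maze at 15 to 19 weeks, fear conditioning at 33 weeks and passive avoidance at 37 to 38 weeks. The mice were killed for RNA 1 month after their tests ended, so the levels are those of adults long past training. Of the 39 mice with complete data, 8 were ranked low, 12 medium and 5 high by both of 2 ranking systems, and 14 were inconsistent between the systems. The other 2 mice lacked complete data. All groups share the strain, the sex and the test history, the labels name no genetic modification, and the strain is inbred, so the groups differ by rank alone as far as the labels say. One inconsistent mouse, replicate 2, is also described as consistently medium.

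CpG methylation is read by proteins with a methyl-CpG-binding domain or with suitable zinc fingers, which recruit repressor complexes. Mbd2 and Mbd3 are alternative subunits of the NuRD chromatin remodelling and deacetylase complex, and mammalian Mbd3, unlike Mbd2, does not bind methylated CpGs selectively. Mbd4 is a DNA glycosylase that removes thymine or uracil opposite guanine at CpG sites. Zbtb33, also called Kaiso, is an X-linked zinc finger repressor that binds methylated CpGs and also an unmethylated sequence. The Gadd45 proteins are small stress sensors without a known catalytic activity that bind Pcna, Cdkn1a and the kinase Map3k4, and Gadd45b in the hippocampus is known as an activity-induced gene linked to demethylation at growth factor promoters.

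The promoters of the 3 Gadd45 genes and of Zbtb33 are shown because these genes carry the patterns described below: Gadd45b and Gadd45g varied together across mice, Gadd45a is the third of the family, and Zbtb33 was the member whose levels stood highest in the high group. Each is the 250 bases before the start site in the RefSeq promoter table for GRCm38.p6, printed 5′ to 3′ along the gene. Capitals mark 4 motifs searched on both strands: the E-box, spelled CACGTG, the CCAAT box, the TATA box, spelled TATAAA, and a short cyclic AMP motif. This last motif, spelled TGACG, is only a part of the full cyclic AMP response element, TGACGTCA.
Gadd45b, chr10:80929841-80930090, + strand: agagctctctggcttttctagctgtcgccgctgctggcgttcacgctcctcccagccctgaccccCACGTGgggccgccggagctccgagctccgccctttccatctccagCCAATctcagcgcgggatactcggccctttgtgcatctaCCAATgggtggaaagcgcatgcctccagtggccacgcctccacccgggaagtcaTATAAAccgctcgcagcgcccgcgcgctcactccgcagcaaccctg
Gadd45g, chr13:51846425-51846674, + strand: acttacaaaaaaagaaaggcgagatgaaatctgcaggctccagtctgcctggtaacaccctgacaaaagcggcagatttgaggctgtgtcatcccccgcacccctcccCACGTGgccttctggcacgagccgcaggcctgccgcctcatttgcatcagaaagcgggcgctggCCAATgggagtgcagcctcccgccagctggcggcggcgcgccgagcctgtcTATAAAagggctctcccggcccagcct
Gadd45a, chr6:67037408-67037657, - strand: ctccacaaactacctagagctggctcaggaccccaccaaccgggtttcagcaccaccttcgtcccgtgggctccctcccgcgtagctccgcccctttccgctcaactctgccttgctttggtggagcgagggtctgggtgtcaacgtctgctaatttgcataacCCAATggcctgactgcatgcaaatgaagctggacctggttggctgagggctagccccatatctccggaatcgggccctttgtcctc
Zbtb33, chrX:38189543-38189792, + strand: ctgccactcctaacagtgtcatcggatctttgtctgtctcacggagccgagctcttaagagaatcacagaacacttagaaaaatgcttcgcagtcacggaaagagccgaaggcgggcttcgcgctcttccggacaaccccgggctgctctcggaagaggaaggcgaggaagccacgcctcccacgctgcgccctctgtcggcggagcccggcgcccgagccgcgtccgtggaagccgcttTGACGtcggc

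The Gadd45b and Gadd45g windows both held an E-box, a CCAAT box and a TATA box. The TATA box began 46 bases before the Gadd45b start and 27 before the Gadd45g start, and the E-box began 185 and 142 bases before them. Among all 32851 promoters of this length in the table, 6.02% held an E-box, 33.9% a CCAAT box, 12.4% a TATA box and 17.8% the short cyclic AMP motif. The E-box, CCAAT box and TATA box stood together in 55 of them (0.167%). These are the motifs that the Gadd45b and Gadd45g windows share, and no other combination was counted, so this share is no test. The Gadd45a window held a CCAAT box, with no E-box and no TATA box. The GC box, spelled GGGCGG and also searched on both strands but not marked by capitals, was in the Gadd45a and Gadd45b windows and not in those of Gadd45g and Zbtb33, and 32.7% of promoters held it. The Zbtb33 window held the short cyclic AMP motif, 10 bases before the start. It did not hold the full element, TGACGTCA, which 1.55% of promoters held. This window had 27 CpGs, more than 91.4% of all promoters, where the median was 6. The Gadd45b, Gadd45g and Gadd45a windows had 22, 16 and 11 CpGs, those of Mbd3 and Mbd4 had 14 and 22, and no window of these 6 genes held TCCTGCNA, the unmethylated Kaiso motif, which 4.03% of promoters held. No window of these 6 genes held the AP-1 site either, searched as TGANTCA on both strands, which 6.75% of promoters held. These matches are descriptions of the letters and not evidence of binding.

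Levels are given as log2(intensity + 16) after quantile normalization, differences are on this log2 scale, and such a difference understates the change of a dim probe set. Array medians of the deposited intensities ranged from 22.4 to 55.0, and 2 arrays stood apart: low replicate 5 was the dimmest array, and medium replicate 9 had a 3′ minus 5′ actin signal of 1.10 and a striatal marker mean of 8.08, each the highest of the 41 arrays. The spike-in control probe sets placed the arrays in sets of 7 (A), 10 (B) and 23 (C) with low replicate 5 alone, a division chosen with the values in view, since the labels name no batch. Of the high arrays, 4 were in set C and 1 in set B. The mean of 6 markers of hippocampal pyramidal and granule cells was 7.21 in medium replicate 9 and 8.74 to 9.28 in every other array, so the labelled tissue was not borne out in that array. Of 12 measured choroid plexus markers 0 were above 0 for high against low (median −1.19), with means of 5.72 to 6.09 in the high group, 5.54 to 9.29 in the low group and 5.68 to 9.21 in the medium group. In RNA from whole hippocampi, a change in the number of cells of a type cannot be told apart from a change in RNA per cell.

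No member probe set differed between groups after adjustment over all 45037 probe sets (limma, Benjamini-Hochberg, adjusted p under 0.05). The count was 0 of 18 for high against low, where 0.00666% of all probe sets passed, for high against medium (0.00222%), medium against low (0%), high against inconsistent (0.00444%), medium against inconsistent (0%), low against inconsistent (0%) and any difference among the 4 groups (F test, 0.00666%). At an unadjusted p under 0.05 the members numbered 0 for high against low (7.10% of all probe sets), 1 for high against medium (9.63%), 1 for medium against low (3.65%), 1 for high against inconsistent (8.67%), 2 for medium against inconsistent (4.70%), 0 for low against inconsistent (4.52%) and 1 for the F test (6.84%). For 18 probe sets, counts of 0 to 2 are close to what these shares of all probe sets amount to.

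Between high and low mice, 10 of the 18 differences were above 0 (median 0.02, range −0.12 to 0.18), and 51.2% of all probe sets were above 0. Between high and medium mice, 11 were above 0 (median 0.09, range −0.24 to 0.27). Between medium and low mice, 7 were above 0 (median −0.06, range −0.23 to 0.20). The 95% confidence intervals of the high against low differences all lay between −0.40 and 0.42.

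**Figure D1:**
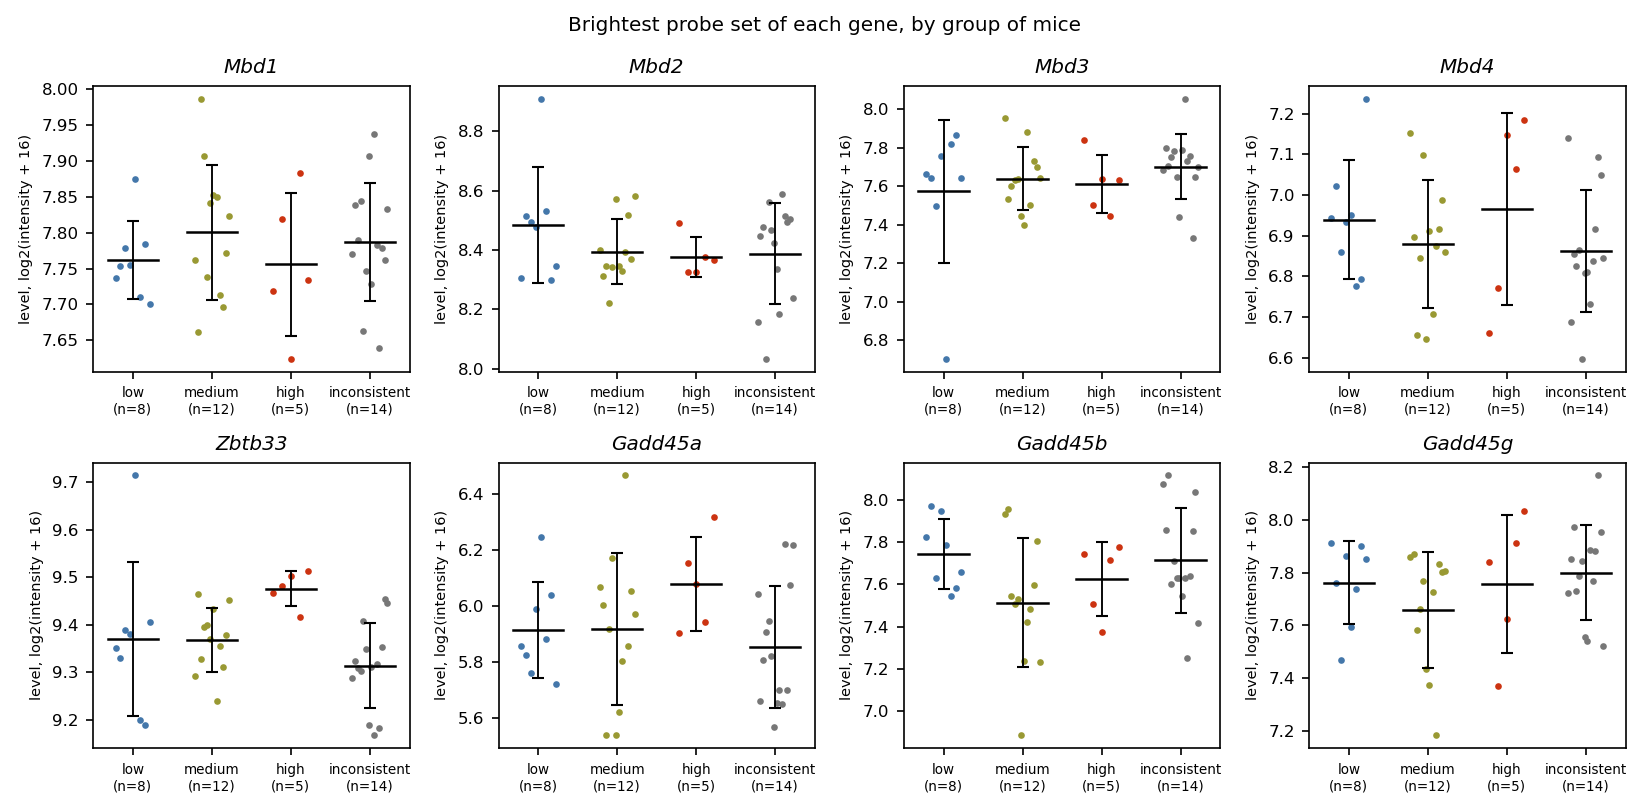
Levels, log2(intensity + 16), of the brightest probe set of each of the 8 genes in the low (n = 8), medium (n = 12), high (n = 5) and inconsistent (n = 14) mice; points are arrays, and bars are the mean and SD, on an axis of its own for each gene. The groups overlap in every panel, Zbtb33 has 4 of 5 high arrays above all medium and inconsistent arrays, and low replicate 5 is the lone point at 6.70 for Mbd3 and 9.71 for Zbtb33. The order seen for Zbtb33 was not counted over all probe sets.

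**Figure D2:**
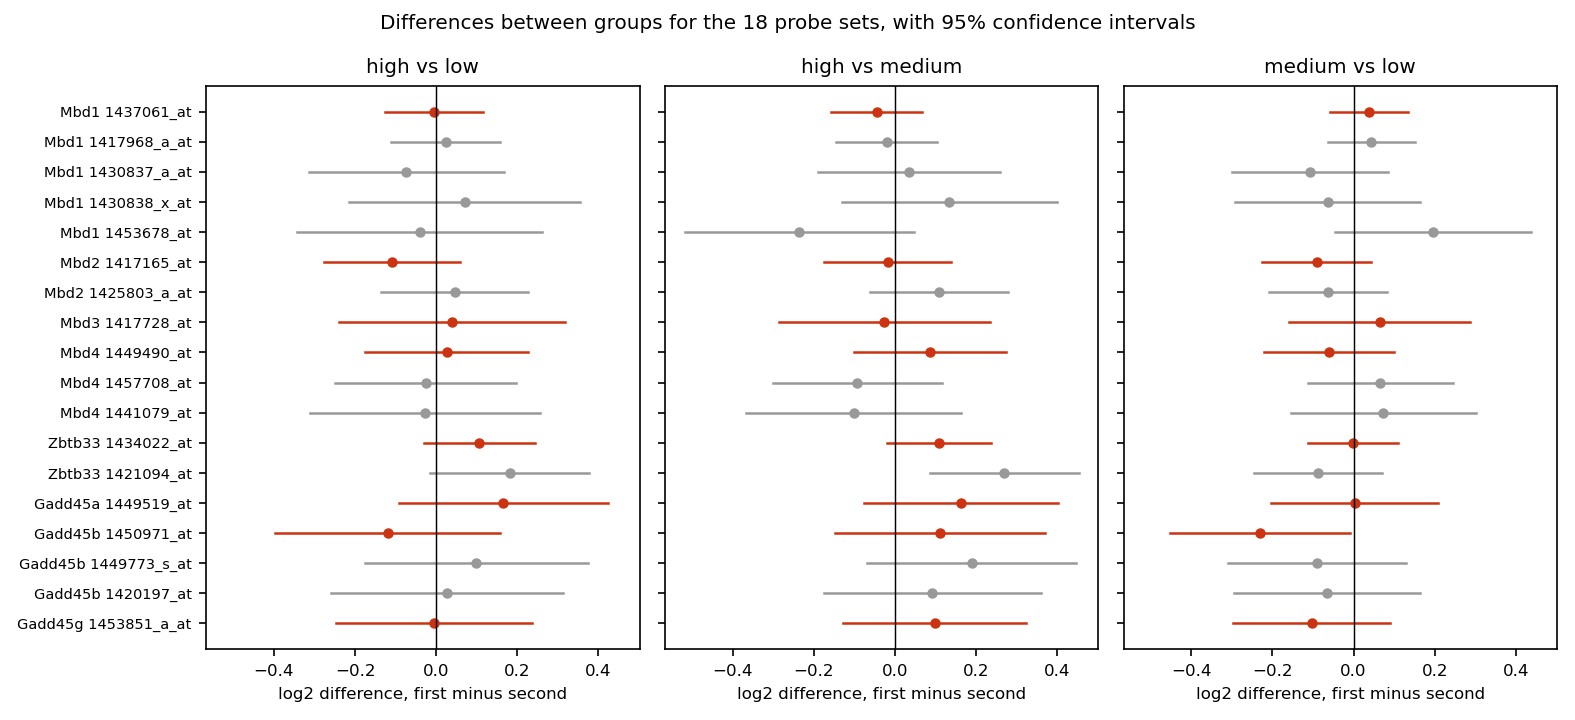
Differences between groups on the log2 scale for the 18 probe sets, with 95% confidence intervals from limma; red marks the brightest probe set of a gene and grey the others. Most intervals cross 0; those of Zbtb33 1421094_at for high against medium and of Gadd45b 1450971_at for medium against low do not, and neither passed the adjusted test.

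Among the readers, Mbd1, whose protein binds methylated CpGs and represses transcription, had groups that overlapped throughout. The level of its brightest probe set, 1437061_at, was 7.72, 7.82, 7.62, 7.88 and 7.73 in the 5 high mice. It ran from 7.70 through a median of 7.75 to 7.87 in the low mice, from 7.66 through 7.80 to 7.99 in the medium mice and from 7.64 through 7.78 to 7.94 in the inconsistent mice. The difference between high and low mice was −0.01 ± 0.06 (SE). Its SD over the 41 arrays was 0.081, and 0.400% of probe sets of like brightness had a lower one, while 1417968_a_at had an SD of 0.118 (13.7%). The other 4 Mbd1 probe sets gave high minus low differences from −0.07 to 0.07. Over arrays the 5 probe sets did not follow each other, with r from −0.35 to 0.24 for the 10 pairs.

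Mbd2, the methyl-CpG-binding subunit of one form of NuRD, had levels (1417165_at) of 8.49, 8.32, 8.33, 8.38 and 8.37 in the high mice. Low mice ran from 8.30 through 8.49 to 8.91, the medium mice from 8.22 through 8.36 to 8.58 and the inconsistent mice from 8.03 through 8.46 to 8.59. The highest low value was replicate 5, and the high values lay inside the range of each other group. High minus low was −0.11 ± 0.08 (SE), and −0.05 without low replicate 5. The other probe set, 1425803_a_at, gave 0.05 ± 0.09.

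Mbd3, the NuRD subunit of the other form, had 1 probe set (1417728_at) with levels of 7.84, 7.50, 7.64, 7.45 and 7.63 in the high mice. In the low group levels ran from 6.70 through 7.65 to 7.87, the medium mice from 7.40 through 7.63 to 7.95 and the inconsistent mice from 7.33 through 7.72 to 8.05. The groups overlapped, and the lowest array of all was low replicate 5. High minus low was 0.04 ± 0.14 (SE), −0.09 without low replicate 5 and −0.02 without high replicate 1, so the sign was not stable.

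Of the NuRD subunits beside Mbd2 and Mbd3, 0 of 11 passed the adjusted test in either direction for high against low, 4 were above 0 and the median was −0.05, where the median over 18193 genes was near 0 and 49.9% were above 0. The 3 of smallest unadjusted p were Gatad2a, a scaffold that links the remodelling and deacetylase parts, at −0.24 ± 0.07 (SE, limma adjusted p = 0.588), Mta3, a subunit of the deacetylase part, at 0.14 ± 0.06 (adjusted p = 0.689), and Chd3, a remodelling ATPase, at −0.14 ± 0.10 (adjusted p = 0.800). Other readers of methylated DNA and their partners also gave 0 of 11 called, with 6 above 0 and a median of 0.02. Their smallest p was that of Mbd6, a further protein with an MBD-like domain, at −0.24 ± 0.12 (adjusted p = 0.703). Baz2b was at 0.10 and Zbtb38, a zinc finger reader related to Kaiso, at 0.11.

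Zbtb33 (Kaiso) was the member with the clearest order of groups, and it did not pass the adjusted test. Its bright probe set, 1434022_at, had levels of 9.47, 9.48, 9.50, 9.42 and 9.51 in the high mice. Those of the low mice ran from 9.19 through 9.37 to 9.71, the medium mice from 9.24 through 9.37 to 9.46 and the inconsistent mice from 9.17 through 9.31 to 9.45. High replicates 1, 2, 3 and 5 lay above every medium and every inconsistent array, and low replicate 5 lay above all high arrays. The means were 9.48 ± 0.04 (SD, n = 5) in high, 9.37 ± 0.16 (n = 8) in low, 9.37 ± 0.07 (n = 12) in medium and 9.31 ± 0.09 (n = 14) in inconsistent mice. The low, medium and inconsistent means did not differ beyond their spread. How many of all probe sets show such an order of high above medium and inconsistent arrays was not counted. At an unadjusted limma p under 0.05, 9.63% of all probe sets passed for high against medium and 8.67% for high against inconsistent.

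High minus low for this Zbtb33 probe set was 0.11 ± 0.07 (SE, limma adjusted p = 0.777), high minus medium 0.11 ± 0.06 (adjusted p = 0.597) and high minus inconsistent 0.16 ± 0.06 (unadjusted p = 0.00676, adjusted p = 0.403). Exact permutation tests of the difference of means, two-sided and using only the arrays of the 2 groups compared, gave p = 0.204, 0.00291 and 0.00086, unadjusted. Such tests were made for all 18 probe sets in 6 comparisons, 108 in all, and 5 had p under 0.05. That count is close to the share of 0.05 that such tests give where no group differs. They were not made for the other probe sets, so no share over all probe sets stands beside these p. For high against medium limma gave this probe set an unadjusted p of 0.0964. With all 8 low arrays the high and low groups overlapped. Without low replicate 5, all 5 high arrays lay above all 7 remaining low arrays, which held for 1 of the 18 member probe sets and for 0.395% of all probe sets (178). Low replicate 5 was the low array that stood above the high arrays here, so this separation follows from leaving it out and is no test. Without that array the high against low difference was 0.16 (limma adjusted p = 0.533). With the 11 arrays brightest in choroid plexus markers left out, high minus low was 0.03 and high minus inconsistent 0.18. That setting drops low replicates 1, 6 and 7 and keeps low replicate 5, which then weighs more in the low mean. The parts of choroid plexus and of low replicate 5 in the value of 0.03 were not tested. With the spike-in set as a block high minus low was 0.17 and high minus inconsistent 0.16. These 2 differences were 0.20 and 0.18 within set C, and 0.0830 and 0.0899 within set B, which holds 1 high array. Of the 6 neuron markers 0 were above 0 for high against low (median −0.09), with means of 11.78 to 11.88 in high and 11.80 to 12.01 in low mice, and their part in the Zbtb33 difference was not tested.

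The other Zbtb33 probe set, 1421094_at, was dim. Its levels were 5.88, 5.81, 5.89, 6.07 and 5.87 in the high mice. In low mice they ran from 5.57 through 5.74 to 5.93, the medium mice from 5.25 through 5.66 to 5.94 and the inconsistent mice from 5.42 through 5.72 to 6.06. The high group had the highest mean here too, with overlap. High minus medium was 0.27 ± 0.09 (SE, unadjusted p = 0.00565, limma adjusted p = 0.320; exact permutation p = 0.00679) and high minus low 0.18 ± 0.10 (adjusted p = 0.726; exact permutation p = 0.0202). In the same comparison with medium mice, 4 of 4 measured striatal markers were lower in high mice, with means over the list of 6.64 to 6.91 in high and 6.81 to 8.08 in medium mice, and their part in the result was not tested. Without low replicate 5 and medium replicate 9 high minus medium was 0.23. Over the 41 arrays the 2 Zbtb33 probe sets correlated at r = 0.27.

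**Figure D3:**
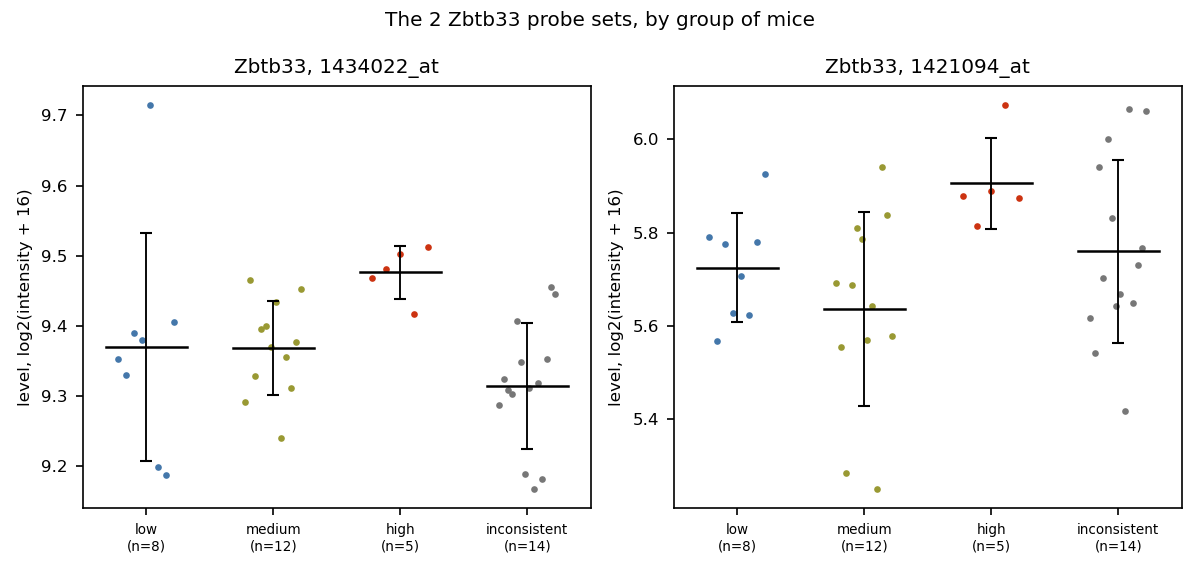
Levels, log2(intensity + 16), of the 2 Zbtb33 probe sets by group; points are arrays, bars the mean and SD. The high mice have the highest mean in both, at 9.48 for 1434022_at and 5.91 for 1421094_at, and the single point above them on the left is low replicate 5 at 9.71.

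Mbd4, the glycosylase that starts repair of deaminated CpGs, had levels (1449490_at) of 6.66, 6.77, 7.15, 7.06 and 7.18 in the high mice. The low mice ran from 6.78 through 6.94 to 7.24, the medium mice from 6.65 through 6.89 to 7.15 and the inconsistent mice from 6.60 through 6.84 to 7.14. The 5 high values spread over most of the range of the other groups. High minus low was 0.03 ± 0.10 (SE), and the other 2 probe sets gave −0.03 and −0.03.

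Among 16 measured genes of base excision and mismatch repair around Mbd4 and Gadd45, 0 passed the adjusted test for high against low, 10 were above 0 and the median was 0.04. Apobec3, a cytidine deaminase, was at −0.44 ± 0.14 (SE, limma adjusted p = 0.598) on a dim probe set. Apex1, the endonuclease that cuts at the site a glycosylase leaves, was at 0.26 ± 0.10 (adjusted p = 0.642), and Polb, the polymerase that fills the gap, at 0.15 ± 0.06 (adjusted p = 0.647). Against medium mice the 3 differences were −0.44, 0.27 and 0.14, and these 2 comparisons share the high arrays.

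No Gadd45 probe set passed the adjusted test in any comparison of groups. Gadd45a, the family member under p53 control, had levels (1449519_at) of 5.90, 6.16, 6.08, 5.94 and 6.32 in the high mice. Low mice ran from 5.72 through 5.87 to 6.25, the medium mice from 5.54 through 5.94 to 6.47 and the inconsistent mice from 5.57 through 5.81 to 6.22. High had the highest mean of the 4 groups, 6.08, and the groups overlapped. High minus low was 0.17 ± 0.13 (SE, limma adjusted p = 0.826), 0.11 without high replicate 5 and 0.0295 within set B, which holds 1 high array. The highest array of all was medium replicate 9.

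Gadd45b had levels (1450971_at) of 7.74, 7.51, 7.37, 7.72 and 7.78 in the high mice. In the low group levels ran from 7.55 through 7.72 to 7.97, the medium mice from 6.89 through 7.52 to 7.96 and the inconsistent mice from 7.25 through 7.64 to 8.11. The medium group held the 3 lowest arrays, replicates 6, 12 and 7, and overlapped every other group. Medium minus low was −0.23 ± 0.11 (SE, unadjusted p = 0.0417, limma adjusted p = 0.999; exact permutation p = 0.0581), and medium minus inconsistent was −0.20 ± 0.09 (unadjusted p = 0.0393, adjusted p = 0.980). Medium minus low was 0.12 within spike-in set A, which holds 1 low array, −0.46 within set B and −0.17 within set C, and −0.22 without low replicate 5 and medium replicate 9. The high against low difference was −0.12 ± 0.13 (adjusted p = 0.898), with −0.06 without high replicate 3, −0.26 with a replicate block and −0.0674 with the spike-in set as a block.

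The other 2 Gadd45b probe sets correlated with 1450971_at at r = 0.24 (1449773_s_at) and 0.14 (1420197_at). They gave medium minus low differences of −0.09 ± 0.11 and −0.07 ± 0.11 (SE). The dim 1420197_at gave a medium minus inconsistent difference of −0.21 ± 0.09 (limma adjusted p = 0.980; permutation p = 0.0113). All 3 probe sets had their lowest group mean in medium mice, although they followed each other weakly from array to array.

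Gadd45g had levels (1453851_a_at) of 7.84, 7.37, 7.62, 7.91 and 8.03 in the high mice. Those of the low mice ran from 7.47 through 7.81 to 7.91, the medium mice from 7.18 through 7.75 to 7.87 and the inconsistent mice from 7.52 through 7.81 to 8.17. The 5 high mice reached from near the bottom to near the top of the range. High minus low was −0.01 ± 0.12 (SE), and medium minus low −0.10 ± 0.09.

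Of 11 measured Gadd45 binding partners and stress kinases, 0 passed the adjusted test for high against low, 6 were above 0 and the median was 0.01. Map3k4, the kinase that Gadd45 proteins activate, was at 0.22 ± 0.09 (SE, limma adjusted p = 0.646). Cdkn1a, a cyclin-dependent kinase inhibitor, was at 0.32 ± 0.17 (adjusted p = 0.722), and Cdk1, a mitotic kinase on a dim probe set, at −0.33 ± 0.19 (adjusted p = 0.762). Of 12 measured genes of the p53 and DNA damage response, 0 passed, 8 were above 0 and the median was 0.01. Mdm2, which marks p53 for degradation, was at −0.23 ± 0.10 (adjusted p = 0.682), the kinase Plk2 at 0.11 and Trp53inp1, a p53-induced gene, at 0.19.

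The members were next set against each other across all 41 arrays, by Pearson's r of their brightest probe sets, with permutation p from 100000 resamples adjusted over 28 pairs. Gadd45b and Gadd45g rose and fell together, with r = 0.57 and Spearman's rho = 0.64 (permutation adjusted p = 0.00126 and 0.00028). Within spike-in sets A, B and C r was 0.75, 0.63 and 0.41, and it was 0.51 without the 2 arrays farthest in Gadd45b. Gadd45a had r = 0.22 with Gadd45b and −0.01 with Gadd45g (adjusted p = 0.373 and 0.955), and 0.27 and 0.25 without low replicate 5 and medium replicate 9. Mbd4 and Gadd45a correlated at r = 0.44 and rho = 0.51 (adjusted p = 0.0352 and 0.00905), with 0.87, 0.46 and 0.39 within the sets and 0.51 without the 2 arrays farthest in Mbd4.

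Mbd3 and Zbtb33 ran opposite to each other, with r = −0.63 and rho = −0.51 (permutation adjusted p = 0.00126 and 0.00905). The value was −0.43 without low replicate 5, −0.34 without the 2 arrays farthest in Mbd3, and −0.85, 0.33 and −0.45 within sets A, B and C, so it did not hold in set B. Mbd2 and Mbd3, the alternative NuRD subunits, had r = −0.48 and rho = −0.12 (adjusted p = 0.0352 and 0.716), but r was −0.16 without low replicate 5, −0.14 without the 2 arrays farthest in Mbd2, and 0.05, 0.19 and −0.27 within the sets. That relation rests on low replicate 5. The other 24 pairs had adjusted p above 0.05 for r. By rho, Mbd4 with Gadd45b and Zbtb33 with Gadd45a passed as well, both with rho = 0.41 (permutation adjusted p = 0.0488), where r was 0.39 and 0.38 (adjusted p = 0.0661 and 0.0681).

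**Figure D4:**
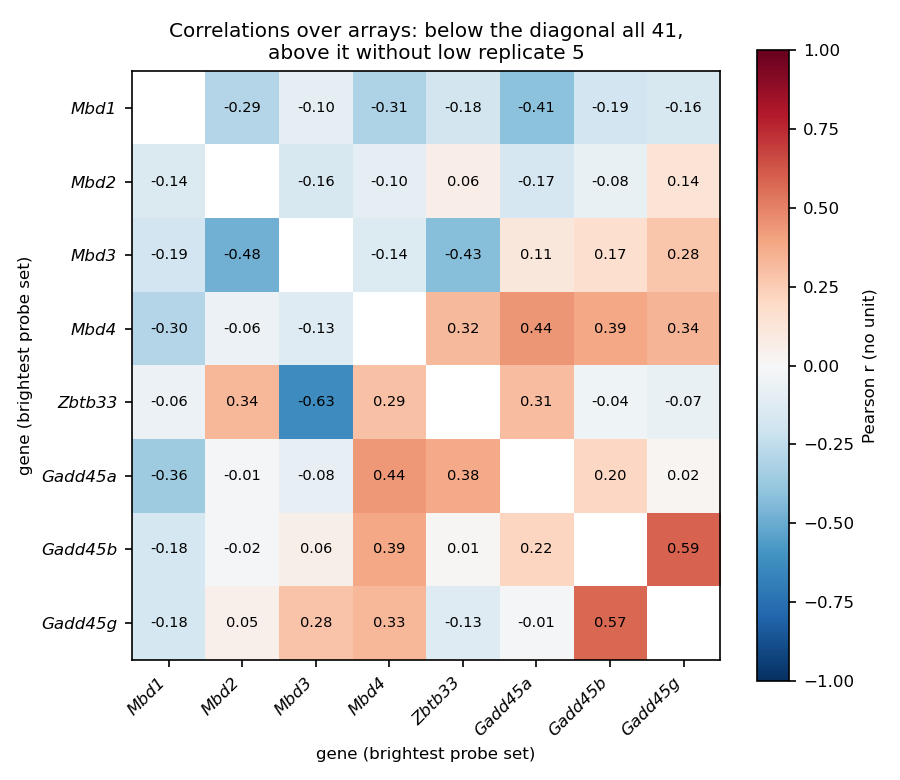
Pearson's r between the 8 genes (brightest probe sets), over all 41 arrays below the diagonal and over the arrays without low replicate 5 above it. Gadd45b and Gadd45g give 0.57 and 0.59, while Mbd2 and Mbd3 go from −0.48 to −0.16 when that array is left out.

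Because Gadd45b is known as an activity-induced gene, each member was also set against the mean level of 24 immediate early genes, which neurons switch on within minutes of activity, and of 18 glucocorticoid-responsive genes, 16 relations in all. Gadd45b followed the immediate early mean with r = 0.72 and rho = 0.74 (permutation p = 1e-05, the smallest that 100000 resamples can give, adjusted p = 0.00016 for r), and Gadd45g with r = 0.58 and rho = 0.67 (adjusted p = 0.00072 for r). Within sets A, B and C r was 0.64, 0.91 and 0.59 for Gadd45b and 0.63, 0.45 and 0.57 for Gadd45g. Without the 2 arrays farthest from the median it was 0.67 and 0.68. Set A lay high on this mean, from 8.55 to 8.66, where set B ran from 7.77 to 8.42 and set C from 7.78 to 8.69. The 7 arrays of set A span little of this mean, so r within set A says little about these relations. Gadd45b also had r = −0.44 with the array median intensity (permutation adjusted p = 0.0775 over 24 relations with array measures, of which 0 passed). Mbd4, Gadd45a and Zbtb33 were at −0.37, −0.35 and −0.33 with the array median, Gadd45g at −0.21, and Mbd1, Mbd3 and Mbd2 at −0.03, 0.05 and 0.16. With 3′ minus 5′ actin Gadd45g had r = −0.45, and −0.14 without low replicate 5 and medium replicate 9. The part of array brightness was not tested in these relations, in those between members or in those with the glucocorticoid mean.

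Gene by gene, Gadd45b had a positive r with 24 of 24 immediate early genes, with a median of 0.52. The highest were Arc, a synaptic scaffold gene, at 0.73, and the transcription factor genes Egr2 at 0.69 and Fos at 0.66, and the lowest was Nptx2 at 0.01. Gadd45g had a positive r with 20 of 24, with a median of 0.49 and the highest value for Btg2, an antiproliferative gene, at 0.68. Its negative values were those of Nptx2 at −0.43, Per1 at −0.19, Homer1 at −0.12 and Egr3 at −0.06. Gadd45a had a positive r with 22 of 24, with a median of 0.21. The genes of this list move together across mice, so these values are not independent.

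The 3 Gadd45b probe sets differed in this respect, with r of 0.72 for 1450971_at, 0.34 for 1449773_s_at and 0.07 for 1420197_at. The 3 Mbd4 probe sets had r of 0.45, 0.32 and 0.36 with the immediate early mean. For the brightest of them rho was 0.48 (permutation adjusted p = 0.0145 for r). Its r was −0.14, 0.29 and 0.60 within sets A, B and C and 0.41 without the 2 farthest arrays. The sign turned in set A, whose 7 arrays span too little of this mean to show whether the Mbd4 relation held there.

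**Figure D5:**
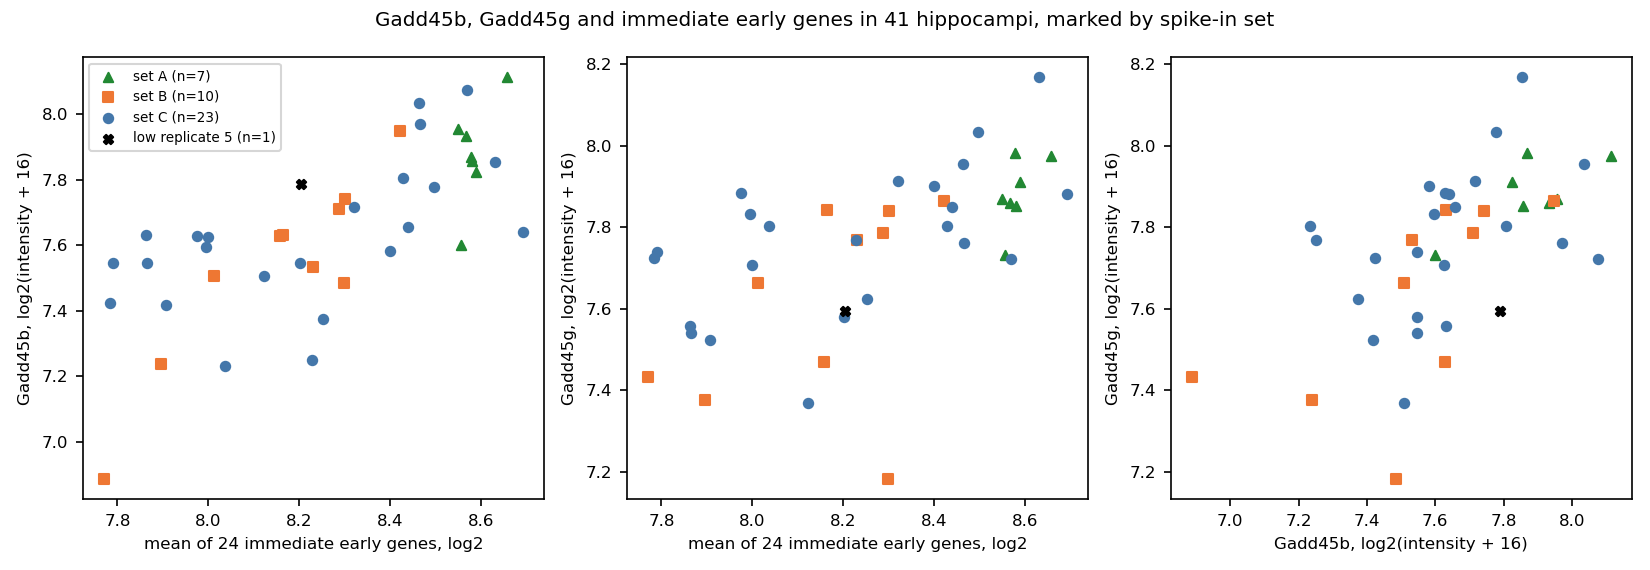
Levels of Gadd45b and Gadd45g, log2(intensity + 16), against the mean level of 24 immediate early genes, and against each other, in 41 arrays marked by spike-in set. Gadd45b and Gadd45g rise with the mean (r = 0.72 and 0.58), and set A lies at the right end of this mean, from 8.55 to 8.66.

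The immediate early genes themselves were not called in any comparison of groups. High against low gave 14 of 24 above 0 with a median of 0.02, and medium against low 4 of 24 with a median of −0.15, the comparison in which Gadd45b was at −0.23. High against medium gave 18 of 24 above 0 with a median of 0.18. Of all genes 49.9%, 51.4% and 48.8% were above 0 in these 3 comparisons. The 3 of smallest p for high against low were Homer1, a synaptic scaffold, at 0.15, the growth factor Bdnf at 0.18 and the clock gene Per1 at −0.19.

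Zbtb33 followed the glucocorticoid mean with r = 0.49 and rho = 0.52 (permutation adjusted p = 0.00485 and 0.00283). Within sets A, B and C r was 0.40, 0.36 and 0.39, without low replicate 5 it was 0.41, and without the 2 arrays farthest from the median it was 0.39. The dim Zbtb33 probe set had r = 0.07 with the same mean. Of the 18 glucocorticoid-responsive genes 0 passed the adjusted test. For high against low 15 were above 0 (median 0.15), where 49.9% of all genes were. For high against medium 17 were above 0 (median 0.11), where 48.8% of all genes were. These 2 comparisons share the high arrays, and the genes of the list were not tested as independent. Those of smallest p were Klf9, a transcription factor induced by the hormone, at 0.24 ± 0.09 (SE, limma adjusted p = 0.621), Fam107a at 0.16 and Angptl4 at 0.23.

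For each member the 3 genes most like it were taken from 11217 genes, by r over the 41 arrays after centring within the spike-in sets. Low replicate 5 is alone in its set, so this centring removes all its variation and it adds nothing to r. The 99th percentile of r over the genes compared ran from 0.35 for Mbd2 to 0.61 for Zbtb33. For Gadd45b they were Arc (0.69), Ccn1 (0.64) and Prokr2 (0.64), and for Gadd45g Rsrp1 (0.67), Rasl11a (0.65) and Lratd2 (0.65). For Gadd45a they were Akap12 (0.67), Cdc5l (0.65) and Mapk6 (0.63). For Zbtb33 they were Wac (0.77), the acetyltransferase gene Crebbp (0.76) and Vcpip1 (0.76). Without centring, where low replicate 5 does enter, these values were 0.38, 0.59 and 0.68. For Mbd4 they were Dedd (0.66), Serpini1 (0.64) and Wnt10a (0.61), for Mbd3 Lmf1 (0.60), Selplg (0.59) and Slit3 (0.57), for Mbd1 Cdk11b (0.64), Adcy9 (0.59) and Kctd6 (0.57), and for Mbd2 Bet1 (0.53), Arid5a (0.50) and Tfb2m (0.50). These are the highest of many values and are descriptions with no test.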

How the data were processed

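Hippocampal RNA of 41 mice was measured on expression arrays. The deposited values are intensity values on a linear scale (0.0112 to 13548.9). Partek and RMA appear in the submitters' processing notes, with no version. How the linear values were made was not given in the sources used here. All 41 arrays were quantile normalized together and taken as log2(intensity + 16). The 64 control probe sets were left out, the other 45037 were kept without a filter, and genes were named by the platform annotation, which gives 34945 of them 1 symbol, 932 several and 9160 none.

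Groups were compared with limma 3.58.1 in R 4.3.3, with 25 arrays in the fit for low, medium and high and 39 for comparisons with inconsistent mice, and p-values were Benjamini-Hochberg adjusted over all 45037 probe sets. Correlations and permutation tests used SciPy 1.17.1 and NumPy 2.4.6. The fits were tested on simulated data. A simulated log2 change of 0.25 was recovered in 16% of cases for high against low. Over the comparisons this ran from 14% (medium against low) to 34% (medium against inconsistent). A change of 0.5 was recovered in 50% (high against low) to 82% (medium against inconsistent). A count of 0 called therefore does not show that changes of such sizes were absent. False calls made up 5.11% of the simulated calls for high against low. Over the comparisons they ran from 2.08% (high against medium) to 10.7% (medium against inconsistent). The number of arrays limits the precision, and no depth applies.

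Each gene's brightest probe set was described in full, and of each list the 3 genes of smallest unadjusted p for high against low were named. The members and lists were chosen with earlier results of these data known. Replicate numbers name mice and do not pair them. Alternatives were the filter, normalization, offset, variance model, array weights, arrays in the fit, the mouse described both ways, spike-in sets, choroid-bright arrays, a replicate block and each array left out; leaving out low replicate 5 and medium replicate 9 together, and the relations with array measures, were added after the data were seen.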

Additional observations from a re-analysis of the deposited data

Results flagged for a closer look

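Single arrays lay far from the rest of their group in 5 of 36 groups tested (the 8 low and the 5 high arrays for each of the 18 probe sets), where chance marks about 1 in 20. Low replicate 5, the dimmest array, gave 4 of them: Mbd2 1417165_at at 8.91 (next 8.53), Mbd3 1417728_at at 6.70 (next 7.50), Zbtb33 1434022_at at 9.71 (next 9.41) and Gadd45b 1449773_s_at at 6.49 (next 7.04). High replicate 4 had the dim Zbtb33 1421094_at at 6.07, where the next high array was at 5.89. The high against low differences of Mbd2, Mbd3 and Zbtb33 with and without low replicate 5 are given beside their values.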

How the results depend on the processing

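The count of member probe sets called was 0 in all 7 tests under each of 43 to 59 settings a test, a replicate block included, and the lowest adjusted p of any member was 0.209 (high against inconsistent, array weights). No paired design was stated, so the replicate block has no footing in the labels; with it, Mbd4 high minus low was −0.0078. Permutation in place of limma gave 1 member probe set at an unadjusted p under 0.05 for high against low (0 by limma), 2 for high against medium (1), 0 for medium against low (1) and 1 for medium against inconsistent (2).

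The sign of small high minus low differences turned as follows. With arrays centred on their medians Mbd1 was 0.0166 and Gadd45g 0.0225. With no normalization Mbd3 was −0.0507 and Mbd4 −0.0697. With array weights Mbd3 was −0.0144 and Gadd45g 0.0272. With the spike-in set as a block Mbd3 was −0.0891. Within set B, which holds 1 high array, Mbd2 was 0.0040, Mbd4 −0.24 and Gadd45g 0.17, and within set C Mbd1 was 0.0281 and Mbd3 −0.188. Without choroid-bright arrays Mbd4 was −0.0346 and Gadd45g 0.0481. Without low replicate 5 and medium replicate 9 Mbd1 was 0.0101 and Mbd3 −0.0859, or 0.01 and −0.0858 when normalized anew. Within set A, which holds 1 low array, Gadd45b was 0.12 for medium minus low and 0.0877 for medium minus inconsistent. Leaving out each array in turn gave −0.0377 to 0.0269 for Mbd1, −0.0859 (without low replicate 5) to 0.0801 for Mbd3, −0.0285 to 0.103 for Mbd4 and −0.0749 to 0.0917 for Gadd45g. Gadd45a kept its direction from 0.0295 (set B) to 0.26 (set C), and Gadd45b from −0.26 (replicate block) to −0.0459 (set B). Zbtb33 1434022_at high minus low kept its direction over 43 settings, from 0.03 to 0.20, and high minus inconsistent over 58, from 0.09 to 0.28. Correlations that turned were Mbd2 with Mbd3 (0.0464 in set A, 0.189 in set B), Mbd3 with Zbtb33 (0.33 in set B) and Mbd4 with the immediate early mean (−0.14 in set A). The cause of these turns was not tested. With no normalization the median over all probe sets shifted by −0.14 for high against medium and 0.13 for medium against inconsistent.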

Other observations

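The 2 mice without complete test data belong to no group compared. Their levels were 7.15 and 7.22 for Mbd4 (1449490_at), 6.07 and 6.16 for Gadd45a, 9.39 and 9.42 for Zbtb33 (1434022_at), 7.62 and 7.87 for Gadd45b (1450971_at) and 7.71 and 7.98 for Gadd45g.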
